A study of Mus musculus with 6 samples.

Results

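Estrogen receptors and the estrogen-related receptors are nuclear receptors with like DNA-binding domains and different ligands. ESR1 (estrogen receptor alpha) and ESR2 (estrogen receptor beta) are switched on by estrogen, whereas the estrogen-related receptors ESRRA, ESRRB and ESRRG, together called ERR, are orphan receptors with no estrogen ligand. ERR work with the coactivators PGC-1α (*Ppargc1a*) and PGC-1β (*Ppargc1b*) to switch on genes of mitochondria and oxidative phosphorylation, and in the heart they share many of these targets and coactivators with PPARA, the fatty acid receptor that switches on fatty acid oxidation. The genes *Esr1*, *Esr2*, *Esrra*, *Esrrb*, *Esrrg*, *Ppargc1a*, *Ppargc1b* and *Ppara* were chosen by their symbols, and all their probes were read. These were 8 of the 27307 gene symbols on the array and 22 of its 56605 probes. *Esr1* had 7 probes, *Esrrg* had 3, and each of the other genes had 2.

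The samples were myocardium of male C57BL/6J *Clk4*-cKO mice, given as 6 to 8 weeks old in the study's reporting summary. The study's methods give that as the age at tamoxifen injection, and the cardiac phenotype was studied some weeks after it. All 6 samples carry the label *Clk4*-cKO, which in the study means that the kinase gene *Clk4* is floxed and is deleted in cardiomyocytes after tamoxifen by MerCreMer, a Cre recombinase under the α-MHC promoter that is joined at each end to a modified ligand-binding domain of the mouse estrogen receptor. The mice had received an adeno-associated virus, under a CMV promoter, with either wild-type nexilin, a sarcomeric protein (NEXN-WT, 3 arrays), or nexilin with the S437E change, a glutamate in place of a serine that mimics phosphorylation (NEXN-S437E, 3 arrays). The comparison asked which transcripts differed between both forms of nexilin in hearts labelled *Clk4*-cKO. By its labels the design holds no heart without the *Clk4* deletion and none without virus, so every value below is a difference between the samples labelled NEXN-S437E and those labelled NEXN-WT. The legend of the study's array analysis counts its replicates as animals, so the samples of a group are separate mice. An *Esr1* probe that reads the receptor domain carried by MerCreMer was well above background on all 3 NEXN-WT arrays and on 0 of the 3 NEXN-S437E arrays. Whether the hearts labelled NEXN-S437E carried or expressed MerCreMer was not tested, so these data do not check that *Clk4* was deleted in both groups. The differences below cannot be told apart from a difference in the Cre construct between the groups.

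Each sample was hybridised to 1 single-colour Agilent array, and all 6 arrays lay on 1 slide read in 1 scan. Levels are log2 signals relative to the 75th percentile of the same array, so a level of 0 equals that percentile and a difference of 1 is 2-fold. Levels are compared between arrays for 1 probe and never between probes. The share of spots well above background ran from 41.9% to 47.8%, and no spot was saturated. NEXN-WT replicate 1 stood farthest from the others, with a mean absolute difference of 0.38 to 0.56 from each, against 0.19 to 0.33 between the other arrays. The cardiomyocyte markers summed to 1681 to 2180 times the percentile signal in NEXN-WT and 2589 to 2694 in NEXN-S437E, so markers that define the labelled tissue were present on every array. Fewer cells of a type and less RNA per cell cannot be told apart in such bulk samples. The symbol of Cre was given to 0 probes. Of the 3 *Clk4* probes, 1 was well above background on all arrays (A_52_P445387), at 1.48, 1.12 and 1.30 in NEXN-WT and 1.49, 1.18 and 1.63 in NEXN-S437E. Whether it lies in the deleted exons was not analysed here, so it does not check the deletion.

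The probes that carried the result on the receptors are printed because they read different stretches of *Esr1* (mm9, chromosome 10, minus strand, 5′ to 3′). The first lies at chr10:5489352-5489411 in coding sequence of the ligand-binding domain. In the first line, printed whole, capitals mark each TAA, TAG or TGA triplet, all of them outside the only 1 of the 3 reading frames that stays free of stop codons. The other lines are the first 30 bases of probes at chr10:5343056-5343115 and chr10:5341167-5341226.
A_55_P2030883: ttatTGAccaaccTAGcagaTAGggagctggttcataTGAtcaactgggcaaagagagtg
A_52_P237077: ttttttgtagacgtttcaaactaccgtgtc
A_65_P17231: attttccttcacagcgtacaaacaacgctt
The first probe is separated from the second by 146236 bases of the genome, and the second from the third by 1829. None of the other probes of the array shared a run of 20 bases with the first (0 probes). MerCreMer also contains this domain, so RNA of the mouse's own *Esr1* and RNA of the Cre construct cannot be told apart by A_55_P2030883.

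*Esr1* read by its ligand-binding domain probe was lower with NEXN-S437E by more than any other probe tested. Its level with NEXN-WT was 3.13, 5.82 and 5.21, and with NEXN-S437E it was -5.30, -5.63 and -5.41. All 3 NEXN-WT arrays were far above all 3 NEXN-S437E arrays, on which the probe was not well above background. In linear signal before scaling these were 2384, 9873 and 5710 against 2.81, 3.23 and 3.35. The fitted log2 fold change was -10.16 ± 0.60 (SE; 95% interval -11.54 to -8.79, n = 3 and 3 arrays), with an adjusted p of 0.00114 by limma. Because one group had no signal above background, the size is a bound: the level was at least 255-fold lower in NEXN-S437E, taking for each of these arrays the lowest signal found among probes well above background. It ranked 1 among 22998 tested probes from the lowest fold change upward, and the next was *1500015O10Rik* at -4.39. Without NEXN-WT replicate 1, the lowest of its group, the log2 fold change was -10.96. All of NEXN-WT lay in slide row 1 together with NEXN-S437E replicate 1, the remaining arrays in row 2, and with the row as a block, where the value is that within row 1, it was -10.02 (limma adjusted p = 0.0388). Under normexp background correction with an offset of 50, which raises dim signals, it was -6.06, a smaller difference than the bound of 255-fold, with a limma adjusted p of 0.00809. By the methods' t-test the adjusted p was 0.198, so that the call was lost, and a filter on probes detected on all 6 arrays removes the probe. The exact two-sided permutation test over 6 arrays gave p = 0.1, the smallest it allows.

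The other *Esr1* probes gave a different picture. A_52_P237077 stood at -2.02, -2.62 and -3.27 in NEXN-WT and at -3.26, -3.73 and -3.88 in NEXN-S437E. The groups overlapped, with NEXN-WT replicate 3 just below NEXN-S437E replicate 1, and no NEXN-S437E array was well above background. Its fitted log2 fold change of -0.99 ± 0.32 had a p of 0.0141 before and 0.204 after adjustment in limma, and the bound was at least 1.55-fold lower. Under normexp background correction the log2 fold change was -0.056, and with the slide row as a block it was -0.62. It was -1.07 under quantile normalization, and with array weights it was -1.10 and passed the adjusted threshold (limma adjusted p = 0.00899). A_65_P17231 read -1.80, -2.65 and -2.96 in NEXN-WT and -2.80, -2.93 and -3.44 in NEXN-S437E, again with overlap. Here 3 and 2 arrays were well above background, and the log2 fold change was -0.58 ± 0.31 (limma adjusted p = 0.358). In both probes NEXN-WT replicate 1 was the highest of the 6 arrays, whereas in A_55_P2030883 it was the lowest of the 3 NEXN-WT arrays. Without this array the log2 fold changes were -0.68 and -0.25. The remaining 4 *Esr1* probes (A_51_P474658, A_55_P2716924, A_55_P2899365 and A_66_P138072) were dim on every array, never well above background, and were not tested.

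**Figure D1:**
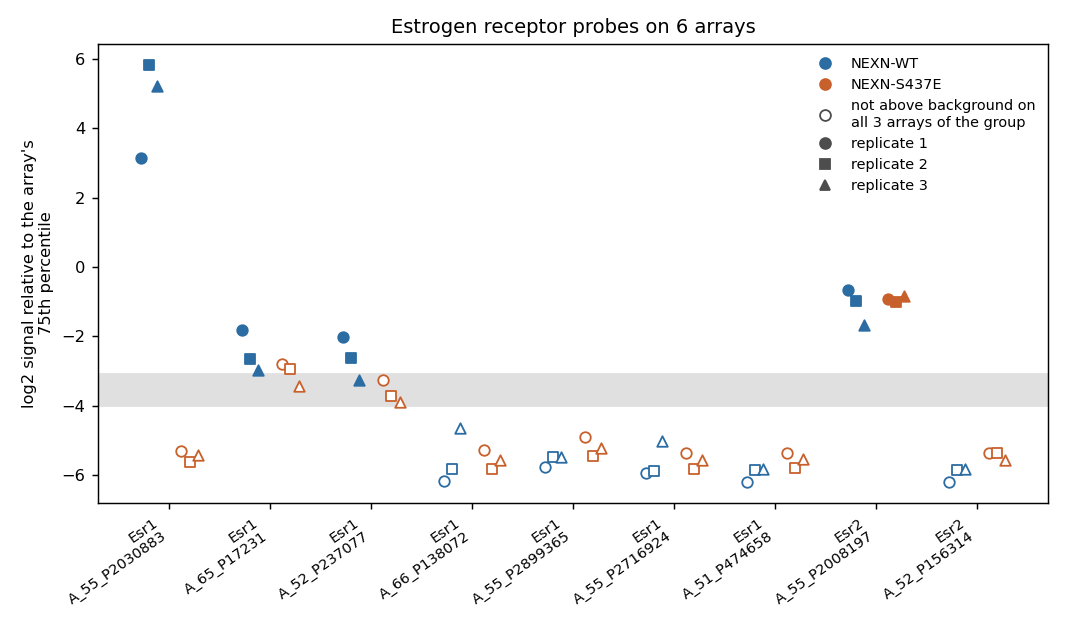
Level of each *Esr1* and *Esr2* probe (x axis) on each of the 6 arrays, as log2 signal relative to the array's 75th percentile (y axis). Filled symbols are groups with all 3 arrays well above background, open symbols those without, and the grey band spans the lowest signals called well above background on the 6 arrays. The A_55_P2030883 levels lie between 3.13 and 5.82 in NEXN-WT and between -5.63 and -5.30 in NEXN-S437E, while for the 2 *Esr1* probes beside it the groups overlap.

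*Myh6*, whose α-MHC promoter drives the Cre construct, was read by 2 probes. A_55_P2173952 stood at 8.15, 8.61 and 8.31 in NEXN-WT and 8.86, 9.02 and 8.92 in NEXN-S437E, a log2 fold change of 0.58 ± 0.16 (limma adjusted p = 0.176). A_55_P2140453 had a log2 fold change of 0.71 ± 0.26 (limma adjusted p = 0.238). For neither probe did the groups overlap, with NEXN-S437E the higher group, as was so for 18.7% of all tested probes. Without NEXN-WT replicate 1 the log2 fold changes were 0.47 and 0.42. *Nexn*, the gene delivered by the virus in both groups, had log2 fold changes of 0.02 and 0.14 on its 2 probes (limma adjusted p = 0.977 and 0.737). Whether these probes lie in the delivered sequence was not analysed here, so they do not check the dose of virus. The part of the Cre construct in the *Esr1* value was not tested.

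Among 20559 tested probes with a gene symbol, those nearest to A_55_P2030883 over the 6 arrays were of *Cd3d*, *Gzmk* and *Jchain*. They encode a part of the T cell receptor complex, a granule protease of lymphocytes and the joining chain of antibodies. Likeness was the root mean square difference of levels after centring each probe on its own mean. It was 3.15, 3.16 and 3.32, against 5.15 for the spread of the *Esr1* probe itself, so no probe compared was close to it in size. The measure was not scaled to each probe's own spread, so it favours probes with large falls (log2 fold changes of -4.02, -3.90 and -3.83). The *Cd3d* probe (A_51_P285206) was well above background on 3 NEXN-WT and 0 NEXN-S437E arrays, so it passed the filter through NEXN-WT alone. Its level was at least 4.595-fold lower in NEXN-S437E. The T cell markers tested were *Cd3d*, *Cd3e*, *Cd3g* and *Cd4*, and *Cd8a* did not pass the filter. Of these 4, 3 were lower at an unadjusted p of 0.05, where 7.91% of all tested genes were. Of the 3, 2 (*Cd3d*, *Cd3g*) also passed the adjusted threshold, where 0.204% of all tested genes did. *Cd4* went the other way, with a log2 fold change of 0.22 ± 0.15, and a second *Cd3e* probe was at -0.20 ± 0.39. The *Cd3g* probe was well above background in NEXN-WT alone and passed the filter through that group. Under normexp 1 of the 4 was lower at an unadjusted p of 0.05 and 1 passed the adjusted threshold, where 8.93% and 0.131% of all tested genes did. The median of the 4 markers was then -0.24, against -1.52. The markers summed to 2.10 to 2.80 times the percentile signal in NEXN-WT and 1.20 to 1.32 in NEXN-S437E, and their part in the *Esr1* value was not tested.

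*Esr2* was detected by 1 of its probes. A_55_P2008197 stood at -0.68, -0.97 and -1.68 in NEXN-WT and at -0.92, -1.002 and -0.85 in NEXN-S437E. The NEXN-S437E arrays lay inside the NEXN-WT range, and the log2 fold change was 0.19 ± 0.25 (95% interval -0.39 to 0.76, limma adjusted p = 0.706). The other probe, A_52_P156314, stayed within background on each array.

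Of the 22 probes, 15 had all 3 arrays of a group well above background and were tested: 3 of *Esr1*, 1 each of *Esr2* and *Esrrb*, and 2 each of *Esrra*, *Esrrg*, *Ppargc1a*, *Ppargc1b* and *Ppara*. The other 7 were never well above background. A_55_P2030883 was the 1 probe of the 15 past the adjusted threshold of 0.05, where 0.161% of all 22998 tested probes passed. It was also the 1 probe past 2-fold with an unadjusted p of 0.05, the thresholds the study applied, where 2.52% of all tested probes passed. No call was made for an ERR, PGC-1 or PPARA probe by either threshold.

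The 11 tested probes of *Esrra*, *Esrrb*, *Esrrg*, *Ppargc1a*, *Ppargc1b* and *Ppara* were well above background on all 6 arrays. All 11 had a mean that was numerically higher in NEXN-S437E, by 0.13 to 0.58 on the log2 scale, where 60.8% of all tested probes were on that side and the median of all tested probes was 0.09. With array weights 4 of the 11 turned negative (both *Ppargc1b* probes, 1 of *Esrra* and 1 of *Ppara*) and under normexp background correction 1 did, while under quantile normalization, the deposited values and the percentile over detected probes none did. Within slide row 1 the differences ran from -0.0094 (*Esrrg* A_55_P2799081) to 0.65 (*Ppara* A_55_P2071596). Every 95% interval held 0, the smallest unadjusted p was 0.059, and the limma adjusted p ran from 0.303 to 0.759. The upper ends of the intervals lay between 0.61 and 1.19, so 2-fold increases lay outside the interval of 9 of these probes and inside that of the 2 *Ppara* probes.

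*Esrra*, the most widely expressed ERR in oxidative tissue, had 2 probes. A_55_P1954306 stood at 5.09, 5.58 and 5.60 in NEXN-WT and at 5.82, 5.76 and 5.73 in NEXN-S437E. The groups did not overlap, as was so in this direction for 18.7% of all tested probes, and the log2 fold change was 0.35 ± 0.17 (limma adjusted p = 0.343). A_52_P198949 stood at -2.49, -1.73 and -2.19 against -1.86, -1.84 and -2.20, with overlap and a log2 fold change of 0.17 ± 0.22. *Esrrb*, best known from embryonic stem cells, was detected by A_55_P1954302 at 1.33, 2.01 and 2.07 in NEXN-WT and 2.21, 2.00 and 2.02 in NEXN-S437E. Here NEXN-WT replicate 1 alone was low, and the log2 fold change was 0.28 ± 0.22. Its other probe, A_52_P628212, stayed within background on each array.

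*Esrrg*, an ERR of heart and other oxidative tissues, was read by A_55_P2006499 at 0.06, 0.69 and 0.65 in NEXN-WT and 0.70, 0.80 and 0.87 in NEXN-S437E. These groups did not overlap either, though NEXN-WT replicate 2 and NEXN-S437E replicate 1 lay side by side, and the log2 fold change was 0.33 ± 0.20 (limma adjusted p = 0.410). A_55_P2799081 stood at 0.79, 1.05 and 1.04 against 0.95, 1.31 and 1.40, with overlap and a log2 fold change of 0.26 ± 0.17. A_55_P2714464 stayed within background on each array.

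*Ppargc1a* encodes the inducible coactivator PGC-1α. Its probe A_55_P2745394 (mm9, chr5:51849419-51849478, minus strand) ends on the stop codon of the coding sequence, shown in capitals, and so reads the end of the coding sequence of the full-length form.
A_55_P2745394: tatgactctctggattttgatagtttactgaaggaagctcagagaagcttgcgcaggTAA
This probe stood at -0.39, 0.28 and 0.19 in NEXN-WT and at 0.44, 0.08 and 0.76 in NEXN-S437E. The groups overlapped, and the log2 fold change was 0.40 ± 0.24 (95% interval -0.16 to 0.96, limma adjusted p = 0.410). A_51_P279038, 431 bases away, stood at 1.44, 2.00 and 1.55 against 1.79, 1.79 and 2.24, with a log2 fold change of 0.28 ± 0.21. On both probes NEXN-S437E replicate 3 was the highest array and NEXN-WT replicate 1 the lowest. Among 20560 tested probes with a gene symbol, those nearest to A_51_P279038 over the 6 arrays were of *Kif21b*, *Gm4633* and *Chd6*. Their root mean square differences were 0.05, 0.06 and 0.06, against a spread of 0.27 for the probe itself.

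*Ppargc1b* encodes PGC-1β. A_51_P294891 stood at 1.76, 2.65 and 1.31 in NEXN-WT, a range that held all 3 NEXN-S437E arrays at 2.30, 2.12 and 1.98. The log2 fold change was 0.23 ± 0.31. A_65_P02810 stood at 0.26, 0.91 and 0.57 against 0.93, 0.72 and 0.47, again with overlap and a log2 fold change of 0.13 ± 0.21, the smallest of the 11.

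*Ppara* had the 2 highest fold changes of the 11. A_55_P2071596 stood at 1.33, 2.38 and 2.09 in NEXN-WT and at 2.58, 2.35 and 2.61 in NEXN-S437E, and its log2 fold change was 0.58 ± 0.26 (95% interval -0.03 to 1.19, limma adjusted p = 0.303). A_55_P2055854 stood at 1.44, 2.77 and 2.26 against 2.61, 2.62 and 2.49, with a log2 fold change of 0.42 ± 0.31 (limma adjusted p = 0.486). On both, NEXN-WT replicate 1 was far below the other arrays and NEXN-WT replicate 2 reached the level of the NEXN-S437E arrays.

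**Figure D2:**
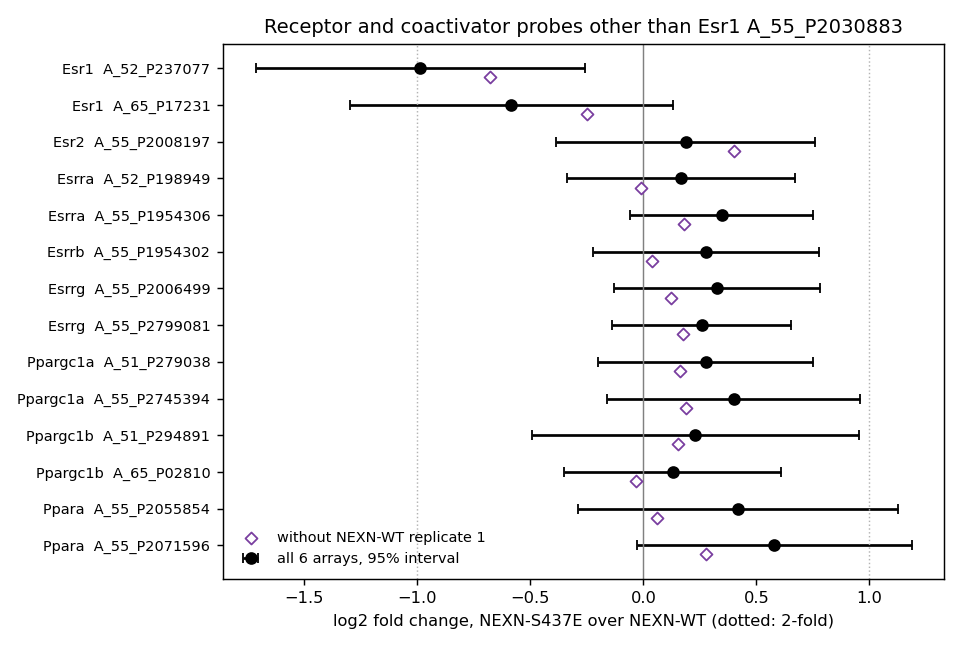
Log2 fold change of NEXN-S437E over NEXN-WT (x axis) for 14 tested probes (y axis), with A_55_P2030883 left out because it lies at -10.16. Black points and bars are the limma value and its 95% interval over all 6 arrays, diamonds the value without NEXN-WT replicate 1, and dotted lines mark 2-fold. The 11 ERR, PGC-1 and PPARA points lie between 0.13 and 0.58 with intervals that hold 0.

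NEXN-WT replicate 1 was the lowest of the 6 arrays for 10 of the 11 ERR, PGC-1 and PPARA probes, and it was the lowest for 43.5% of all tested probes. Its median deviation from the probes' means was -0.50, against -0.12 over all tested probes. NEXN-WT replicate 2 was the highest array for 3 of the 11, NEXN-S437E replicate 1 for 3 and NEXN-S437E replicate 3 for 5. Without NEXN-WT replicate 1, 9 of the 11 log2 fold changes stayed above 0, their median went from 0.28 to 0.16 and the highest was 0.28. The values without it were 0.28 and 0.06 for the *Ppara* probes, 0.18 and -0.01 for *Esrra*, 0.04 for *Esrrb*, 0.12 and 0.17 for *Esrrg*, 0.19 and 0.16 for *Ppargc1a*, and 0.16 and -0.03 for *Ppargc1b*. Without NEXN-WT replicate 2 the *Ppara* values were 0.80 and 0.73, with unadjusted p of 0.0168 and 0.0278 and adjusted p of 0.239 and 0.266 by limma.

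**Figure D3:**
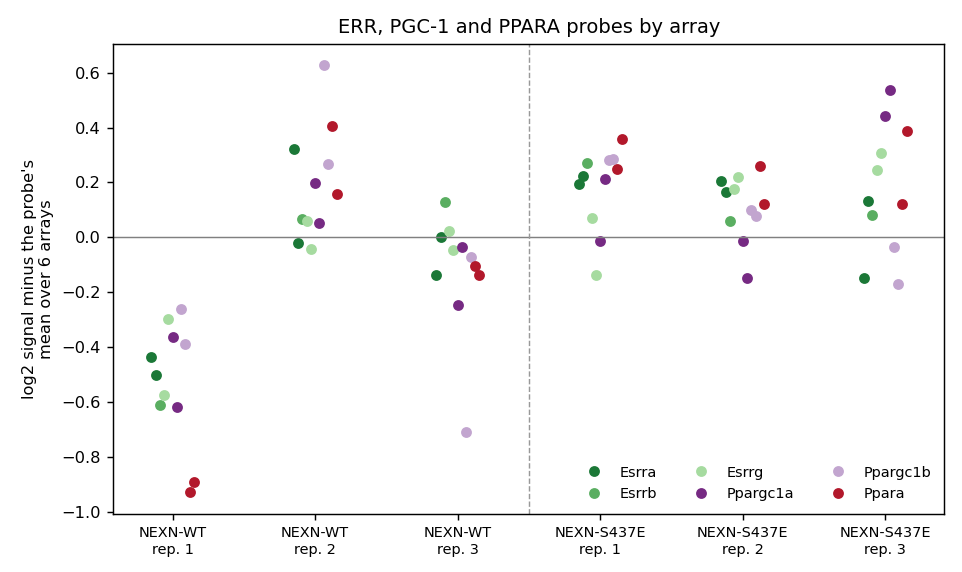
Level of each of the 11 ERR, PGC-1 and PPARA probes minus its own mean over the 6 arrays (y axis, log2), by array (x axis), coloured by gene. NEXN-WT replicate 1 is the lowest array for 10 of the 11 probes, with a median deviation of -0.50. The exception is *Ppargc1b* A_51_P294891, which is lowest on NEXN-WT replicate 3.

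Genes known as targets of ERR and of PPARA were read from lists, with 1 probe a gene. Of the pathway lists 0 genes passed the adjusted threshold by limma, by which 0.204% of all 13747 tested genes passed, and 41 of 132 had an unadjusted p under 0.05 (38 higher and 3 lower), where 10.1% of all tested genes were higher and 7.91% lower. With array weights 31 of the 132 (28 higher and 3 lower) passed the adjusted threshold, where 17.1% of all tested genes did. The count at an unadjusted p of 0.05 was 17 under quantile normalization and 7 with the slide row as a block, where 16.7% and 9.54% of all tested genes passed. With 1 array left out it ran from 17 (without NEXN-S437E replicate 3) to 50 (without NEXN-WT replicate 3). Of all tested genes 11% and 22.3% then passed.

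ERR targets, which encode parts of the respiratory chain, the tricarboxylic acid cycle and contraction, were tested for 36 genes. All 36 had a log2 fold change above 0, with a median of 0.48, where 59.2% of all tested genes were above 0 and their median was 0.07. At an unadjusted p of 0.05, 18 of the 36 were higher and 0 lower, where 10.1% of all tested genes were higher and 7.91% lower. Under quantile normalization 31 of the 36 were above 0, and the median was 0.15, against 0.0035 over all tested genes. Only 3 of the 36 then had an unadjusted p under 0.05, a share near the 7.09% of all tested genes that were higher under that normalization. Without NEXN-WT replicate 1, 34 were above 0 and 12 had an unadjusted p under 0.05, where 7.55% of all genes were higher, with a median of 0.28 against 0.04 over all genes. *Uqcrfs1* (an iron-sulfur subunit of complex III) had the smallest p, at 5.35, 5.69 and 5.77 in NEXN-WT and 6.09, 6.25 and 6.31 in NEXN-S437E, a log2 fold change of 0.62 ± 0.16 (limma adjusted p = 0.159). *Etfdh* (electron transfer from fatty acid oxidation) and *Cyc1* (a cytochrome of complex III) had log2 fold changes of 0.67 ± 0.20 and 0.58 ± 0.19 (limma adjusted p = 0.192 and 0.204) on probes other than their brightest, which gave 0.62 and 0.48.

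PPARA targets, genes of fatty acid uptake and oxidation, were tested for 28 genes, of which 24 were above 0, with a median of 0.55. At an unadjusted p of 0.05, 17 of them were higher and 0 lower, where 10.1% of all tested genes were higher. Under quantile normalization 23 were above 0 and 9 were higher at that p, where 7.09% of all tested genes were, with a median of 0.30. Without NEXN-WT replicate 1 all 28 were above 0 and 16 were higher at that p, where 7.55% of all tested genes were, with a median of 0.41. *Acot1*, an acyl-CoA thioesterase, was the 1 gene of the list past 2-fold with an unadjusted p of 0.05, where 0.771% of all tested genes were higher by that threshold. It stood at 1.21, 2.81 and 2.41 in NEXN-WT and 3.49, 3.36 and 3.07 in NEXN-S437E, a log2 fold change of 1.16 ± 0.37 (limma adjusted p = 0.207) and of 0.70 without NEXN-WT replicate 1. *Decr1* (oxidation of unsaturated fatty acids), *Ehhadh* (peroxisomal fatty acid oxidation) and *Acot2* (a mitochondrial acyl-CoA thioesterase) had log2 fold changes of 0.93 ± 0.21, 0.80 ± 0.19 and 0.77 ± 0.18 (limma adjusted p = 0.133, 0.134 and 0.134). For these 4 genes every NEXN-S437E array was above every NEXN-WT array, as for 20 of the 28 in the list, 24 of the 36 ERR targets and 19.3% of all tested genes.

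Markers of cardiomyocytes and fibroblasts had medians away from that of all genes too, with 0 of them past the adjusted threshold by limma over all 6 arrays and 1 fibroblast marker past it without NEXN-WT replicate 1. All 8 cardiomyocyte markers had a log2 fold change above 0, with a median of 0.42 and 3 higher at an unadjusted p of 0.05, where 59.2% of all tested genes were above 0 and 10.1% higher at that p, while under quantile normalization 6 of 8 were above 0, 0 had an unadjusted p under 0.05 and the median was 0.18. Their median without NEXN-WT replicate 1 was 0.30. All 6 fibroblast markers were below 0, with a median of -0.79, 4 lower at an unadjusted p of 0.05 and 2 (*Col1a1*, *Col1a2*) past 2-fold, where 7.91% and 2.15% of all tested genes were lower by these thresholds. They summed to 543 to 821 times the percentile signal in NEXN-WT and 413 to 447 in NEXN-S437E. The ERR targets summed to 5434 to 8611 in NEXN-WT and 10050 to 10400 in NEXN-S437E, and the PPARA targets to 1285 to 1967 and 2516 to 2598. The part of cell composition in the values of the ERR and PPARA targets was not tested.

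**Figure D4:**
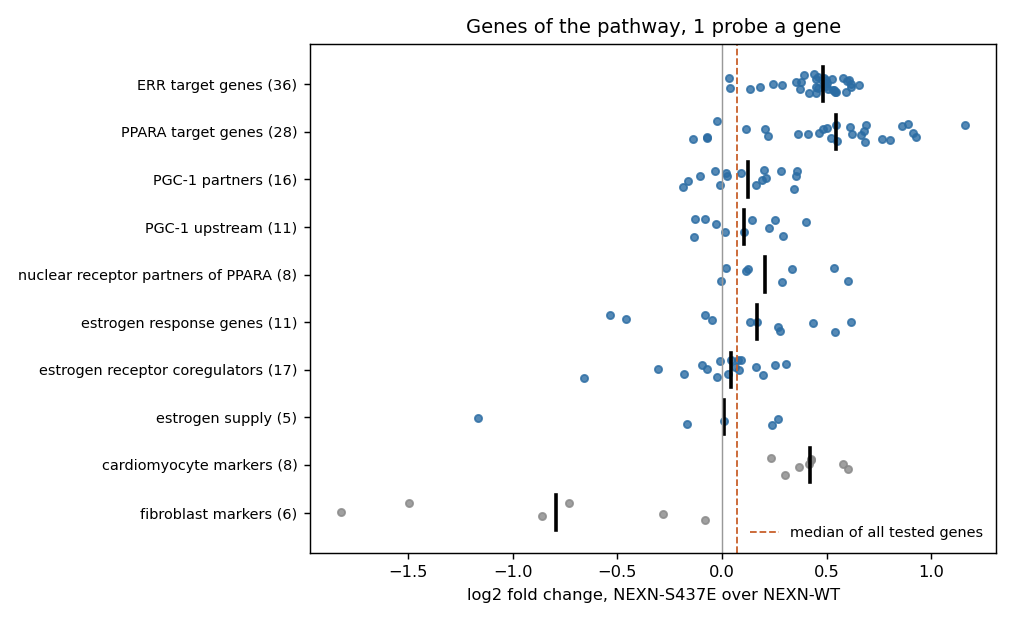
Log2 fold change of NEXN-S437E over NEXN-WT (x axis) for the tested genes of each list (y axis, number of genes in brackets), 1 probe a gene. Black bars are list medians and the dashed line the median of all tested genes, 0.07; the ERR and PPARA targets have medians of 0.48 and 0.55, the cardiomyocyte markers 0.42 and the fibroblast markers -0.79.

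The genes around the receptors and coactivators lay nearer to the rest of the array. Of 8 nuclear receptor partners of PPARA tested, 1 was higher at an unadjusted p of 0.05 and 0 lower, with a median log2 fold change of 0.21. The median of these partners was 0.03 without NEXN-WT replicate 1, against 0.04 over all genes, and 0 of them then passed. The partners were led by *Pparg*, the adipogenic PPAR, at 0.54 ± 0.21, *Rxra*, the common dimer partner, at 0.41 ± 0.17 on a probe other than its brightest, and *Rxrg* at 0.60 ± 0.31 (limma adjusted p = 0.256, 0.285 and 0.347). Of 16 PGC-1 partners, 1 was higher at an unadjusted p of 0.05, where 10.1% of all tested genes were, and 0 lower. Their median of 0.13 was 0.01 without NEXN-WT replicate 1. *Lpin1*, *Tfb2m* and *Tfb1m*, of which the last 2 encode mitochondrial transcription factors, had log2 fold changes of 0.83 ± 0.30, 0.35 ± 0.14 and 0.36 ± 0.20 (limma adjusted p = 0.240, 0.255 and 0.370). The *Lpin1* value is of a dim probe, well above background on 2 of the 3 NEXN-WT arrays, and its brightest probe gave 0.20 ± 0.22. Of 11 genes upstream of PGC-1, 0 passed in either direction, with a median of 0.11. *Prkaca*, a catalytic subunit of protein kinase A, *Atf2*, a transcription factor, and *Akt1*, a kinase, led at 0.56 ± 0.20, 0.89 ± 0.41 and 0.43 ± 0.21 on the probe with the smallest p of each, and their brightest probes gave 0.25, 0.14 and 0.29.

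On the estrogen side, 17 coregulators of the estrogen receptor had a median log2 fold change of 0.04. At an unadjusted p of 0.05, 1 of them was lower, where 7.91% of all tested genes were. Their median was -0.05 and 0 of the coregulators were lower without NEXN-WT replicate 1. *Nrip1*, a corepressor, stood at 0.54, 0.05 and -0.51 in NEXN-WT and -0.51, -0.75 and -0.63 in NEXN-S437E, a log2 fold change of -0.66 ± 0.26 (limma adjusted p = 0.258) and of -0.40 without NEXN-WT replicate 1. *Pelp1*, a scaffold of estrogen receptor signalling, and *Ddx5*, an RNA helicase, had log2 fold changes of 0.53 ± 0.15 and 0.27 ± 0.14 on probes other than their brightest, which gave 0.16 and 0.08. The 11 tested estrogen response genes had a median of 0.17, with 1 higher and 1 lower at an unadjusted p of 0.05. Of all tested genes 10.1% were higher and 7.91% lower. The median of the response genes was 0.08 without NEXN-WT replicate 1, with 1 higher and 0 lower, where 7.55% and 6.83% of all tested genes were. Over all 6 arrays the higher and the lower response gene were *Ccnd1* (cyclin D1) at 0.54 ± 0.17 and *Igfbp4* (a binding protein of insulin-like growth factors) at -0.46 ± 0.17 (limma adjusted p = 0.2 and 0.239), and *Myc* was at -0.53 ± 0.27 (limma adjusted p = 0.338).

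Among genes that make or break down estrogen, 5 of 9 passed the filter on dim probes. *Cyp1b1*, which hydroxylates estradiol, was lower past 2-fold with an unadjusted p of 0.05, where 2.15% of all tested genes were lower by that threshold. It stood at 2.499, 1.23 and 1.1 in NEXN-WT and 0.74, 0.23 and 0.36 in NEXN-S437E, with no overlap and a log2 fold change of -1.17 ± 0.36 (limma adjusted p = 0.195). Without NEXN-WT replicate 1, the highest array, it was -0.72. *Hsd17b4* and *Hsd17b7*, enzymes of the 17β-hydroxysteroid dehydrogenase family, had log2 fold changes of 0.24 ± 0.15 and 0.38 ± 0.29, the second on a probe other than its brightest. The list had a median of 0.01. Under quantile normalization the medians of the coregulators, the estrogen response genes, this list and the genes upstream of PGC-1 were -0.06, -0.02, -0.16 and -0.0064, all on the other side of 0.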

How the data were processed

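The authors extracted total RNA with TRIzol and hybridised Cy3-labelled cRNA to Agilent SurePrint G3 arrays (design 074809), read with Feature Extraction 10.7.1.1 (protocol GE1_107_Sep09), as the submitters' notes and the file headers give. The deposited array files hold background-subtracted, linear intensity without normalization across arrays. The authors also deposited a table of log2 values whose 6 columns are identical once sorted, and the method behind them is not given in the sources used here.

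From each array log2 of the processed intensity minus its 75th percentile was taken. Control and outlier spots (122 to 195 an array) were left out, and repeat spots of 1 probe gave 1 mean. A probe was tested where all 3 arrays of a group marked it well above background (22998 probes), with limma 3.58.1 (lmFit, eBayes) in R 4.3.3 and Benjamini-Hochberg adjustment over all of them. Calls were made at an adjusted p of 0.05, and at 2-fold with an unadjusted p of 0.05. For arrays their number limits the precision. The test was checked on simulated data with independent noise on each probe and large shifts or none. Small differences and an array that deviates on many probes were not simulated.

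The genes and lists were chosen with earlier results of these data known. Named genes are all probes of the 8 genes, list genes called by either threshold, the 3 of each list with the smallest unadjusted p (the probe with that p), *Clk4*, *Nexn* and *Myh6*, and the 3 probes nearest in pattern to the brightest *Esr1* and *Ppargc1a* probes. List counts and medians use the probe of highest mean. Alternatives were quantile normalization, normexp (offset 50), the percentile over probes detected on all arrays, the deposited log2 values, other filters on dim probes, outlier spots kept, the methods' t-test, blocks for replicate number and slide row, array weights, a 1.5-fold threshold and each array left out. Coordinates are mm9 as in the files. No genome of that build and no protein sequence was used. Other marker lists gave medians of 0.05 (endothelial), -0.21 (smooth muscle), 0.06 (macrophage), -1.52 (T cell), -0.61 (B cell, 1 gene tested) and 0.36 (adipocyte, 1 gene tested).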

Additional observations from a re-analysis of the deposited data

How the results depend on the processing

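The *Esr1* probe A_55_P2030883 kept its direction and adjusted call under every alternative that could test it except the methods' t-test, by which its log2 fold change of -10.16 had an adjusted p of 0.198. Over the alternatives the log2 fold change ran from -11.11 to -6.06. A filter on all 6 arrays removes it, so that 0 of the probes read here were called by either threshold, as does the t-test for the adjusted call (0). A second probe, A_52_P237077, joined it by the 2-fold rule under quantile normalization, the percentile over detected probes, the deposited values and array weights, and when the threshold was 1.5-fold (2 probes each), and with array weights the adjusted threshold too (2 probes). The same probe was at -0.056 under normexp and -0.62 with the slide row block. Leaving out 1 array gave 1 to 2 probes called by the 2-fold rule, -10.96 to -9.61 for A_55_P2030883, 12 to 127 probes of the whole array past the adjusted threshold, and 368 to 1006 past the 2-fold rule. The pathway lists held 2 of 132 genes by the 2-fold rule on any probe (1.52%, where 3.43% of all tested genes passed), and 1 to 9 with 1 array left out. Without NEXN-WT replicate 1 the 1 gene was *Pdk4*, in place of *Acot1* and *Cyp1b1*, and 2.18% of all genes passed. Without NEXN-WT replicate 3 it was 9 of 134, where 5.70% passed. NEXN-WT replicate 1 is the array whose loss gives 127 and 368, and NEXN-WT replicate 2 the one whose loss gives 12.

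Over the whole array 37 probes passed the adjusted threshold and 579 the 2-fold rule. These were 7 and 2269 with no filter on dim probes, 20 and 345 with probes detected on all 6 arrays, 24 past the adjusted threshold with the slide row as a block, 180 past the 2-fold rule under normexp, and 3820 past the adjusted threshold with array weights. The t-test called 0 after adjustment and 3141 at an unadjusted p of 0.05. Genes of the pathway lists called by the 2-fold rule on any probe were 1 under normexp and 1 with the slide row block, where 1.1% and 4.86% of all tested genes passed. With no filter 5 of 148 were called, where 6.26% of all genes passed. The t-test and array weights called 0, where 2.43% and 2.98% passed. With array weights 36 list genes (31 higher and 5 lower) passed the adjusted threshold on any probe, 27.3% of them, where 21.2% of all tested genes passed.

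Among the other probes the sign turned, with none past the adjusted threshold, under array weights for *Ppargc1b* A_51_P294891 (-0.40) and A_65_P02810 (-0.25), *Esrra* A_52_P198949 (-0.24) and *Ppara* A_55_P2055854 (-0.12). It also turned under normexp for A_65_P02810 (-0.015) and with the slide row block for *Esrrg* A_55_P2799081 (-0.0094). With 1 array left out A_51_P294891 ran from -0.067 to 0.60, A_65_P02810 from -0.033 to 0.30, A_52_P198949 from -0.0094 to 0.37 and *Esr2* A_55_P2008197 from -0.10 to 0.40, negative without NEXN-WT replicate 3 (A_51_P294891, A_55_P2008197) or replicate 1 (A_65_P02810, A_52_P198949).

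Arrays with the same replicate number did not deviate together (correlations of -0.15, -0.03 and -0.18 over all tested probes). The samples were therefore not treated as pairs, though such correlations cannot exclude a pairing. With the replicate number as a block 37 probes passed the adjusted threshold and 591 the 2-fold rule, 1 of the probes read here passed each, and A_55_P2030883 kept -10.16.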
